A study of Mus musculus with 2 samples.

Results

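EGR1 peaks were found at 3 of 9 genes of the myelin sheath and of the oligodendrocyte lineage in mouse frontal cortex: Mbp with 2 peaks, Mobp with 1 and Cnp with 1. Mag and Mog, which also encode myelin proteins, had none, and neither did the lineage factors Olig1, Olig2, Sox10 and Myrf. A gene was counted when the centre of a peak lay in its body or within 10 kb of one of its transcription start sites (TSSs) in the GENCODE M21 annotation, and the 4 peaks found in this way came from 12014 in the deposited list. The list was made by ChIP-seq, in which DNA bound by a protein is recovered from cross-linked tissue with an antibody and sequenced, here with an antibody to EGR1. The tissue was frontal cortex of 129SvEv/C57BL/6N F1 hybrid male mice (the strain is labelled C57BL6N/129SvEv) at 6 weeks of age, without genetic modification or treatment in the labels, and 4 to 5 mice were pooled for each of 2 ChIP experiments. Both experiments were merged into 1 peak list, and the input DNA sample had no processed file. Each peak carries its irreproducible discovery rate (IDR), which is read like a q-value. It is lower for a peak that both replicates rank high and alike, and all peaks had an IDR of 2% or less. Read counts and single-replicate peaks were not analysed here, so the depth is unknown, a difference has no replicate check, no test was run, and the 95% Wilson intervals on shares cover counting error only. A gene without a peak is a gene at which none passed this IDR.

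Oligodendrocytes wrap axons of the central nervous system in myelin, a compacted membrane that speeds conduction. Mbp encodes the basic protein that holds the cytoplasmic faces of that membrane together, and Mobp another small basic protein of myelin. Cnp encodes the enzyme of the cytoplasmic channels in non-compact myelin. Mag encodes an adhesion protein next to the axon, and Mog a protein of the outermost myelin surface. Olig2 and Olig1 are helix-loop-helix factors of the lineage, Sox10 is a factor needed for terminal differentiation, and Myrf is a membrane-tethered factor that switches on myelin genes. EGR1 is a zinc-finger factor induced by neuronal activity, and its relative EGR2, which reads a like motif, is known for driving myelination by Schwann cells in peripheral nerve. The labels name the tissue only, so in this bulk preparation the cell type in which a peak arose cannot be told apart.

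Of the 9 genes, 33.3% had a peak (95% Wilson interval 12.1 to 64.6), against 39.6% of 21938 protein-coding genes, so the members' share was not set apart from the background. With a TSS distance of 50 kb it was 77.8% (interval 45.3 to 93.7), against 58.7%, so the order of both values turned with this distance. By role, 3 of the 5 myelin protein genes had a peak (60.0%, interval 23.1 to 88.2) and 0 of the 4 factor genes (upper limit 49.0%). The intervals of both groups overlapped each other and held the background value. Long genes hold peaks more often, and the members differ in length. Over all protein-coding genes the share with a peak was 25.9% in the shortest quartile (up to 6.52 kb, with Olig1 and Olig2), 34.8% in the next (up to 17.4 kb, with Mag, Mog, Cnp and Sox10), 42.0% in the one after it (up to 45.1 kb, with Mobp and Myrf) and 55.7% in the longest (with Mbp). The map of peaks around the 9 genes shows where each peak lies relative to the gene.

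**Figure D1:**
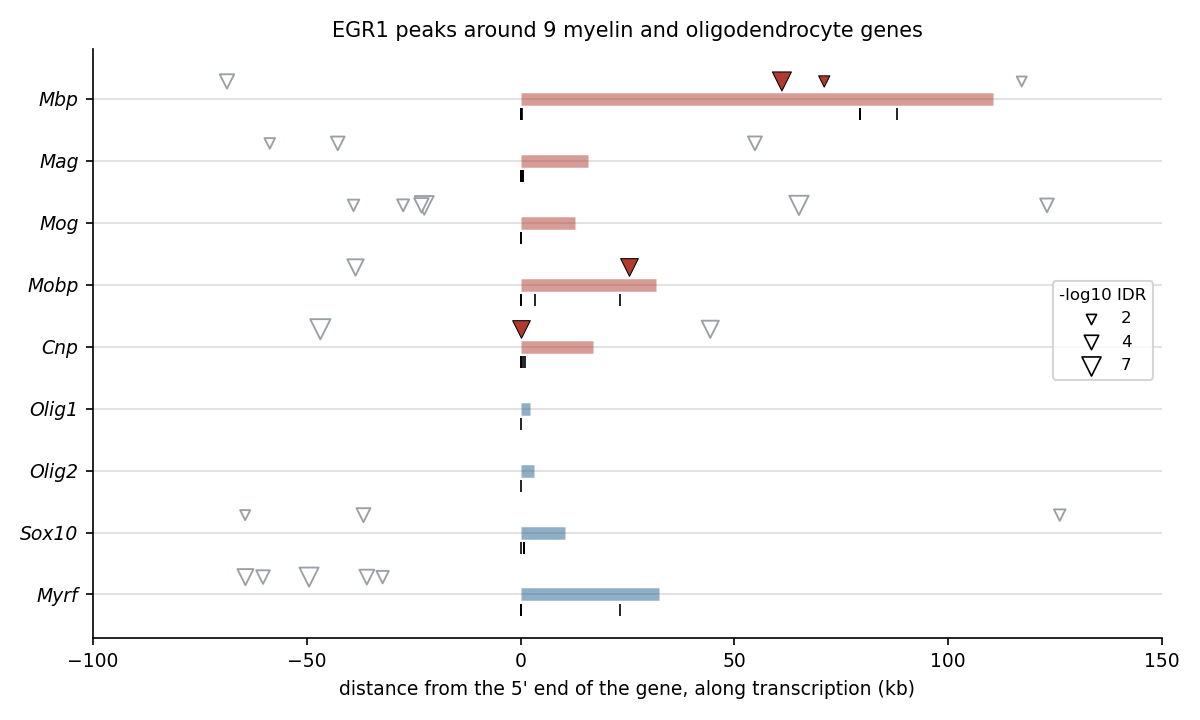
Each row is 1 gene, drawn along its direction of transcription with distance from its 5′ end in kb on the horizontal axis; the thick bar is the gene body (red for myelin proteins, blue for factors), the ticks under it are its TSSs, and the triangles are EGR1 peaks, filled where they met the gene's rule and larger at lower IDR. The 4 filled triangles lie at Mbp, Mobp and Cnp, and the surroundings of Olig1 and Olig2 hold no peak over the range drawn.

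The Cnp peak was the one closest to a promoter. It covered chr11:100574954-100575152 (mm10), 199 bp, with an IDR of 1.07e-06 and rank 2609 in the list (21.7% of the peaks ranked as well or better). Cnp (ENSMUSG00000006782.16) runs from chr11:100574904-100591729 on the plus strand, and the peak centre lay in the 5′ UTR of exon 1 of Cnp-201, 149 bp after the start of this protein-coding transcript and 59 bp before the start of the non-coding transcript Cnp-203. This peak was rich in CpG, the dinucleotide at which cytosine is methylated: it held 21 CpGs, and its ratio of observed to expected CpGs was 0.89 at a GC content of 69.8%. Equally wide windows placed 5 kb away on both sides had a mean ratio of 0.28, and 17.0% of all peaks had a ratio as high as that of the Cnp peak. The EGR1 motif searched for on both strands was GCGTGGGCG or GCGGGGGCG. No exact copy lay in the Cnp peak. In it 4 sites differed from the motif by 1 base, more than in any of the other 3 peaks, whose GC content was lower. The number of such sites per peak was not compared with the whole list. In the following lines these sites are in capitals with 10 bases to each side, read 5′ to 3′ on the strand of the site from the mm10 genome (GRCm38.p6), and the substitution gives the base of the motif, its position counted from 1 at the 5′ end of the motif, and the base of the site. The first and the second lie in the 5′ UTR, and the last pair share 1 base.
Cnp site 1, chr11:100574948-100574976, plus strand, C8G: aagggaccctGCGTGGGGGggccccggac
Cnp site 2, chr11:100575044-100575072, minus strand, C2A: tcaccatgatGAGTGGGCGcaccgccgtc
Cnp site 3, chr11:100575074-100575102, plus strand, C8G: cgcagcgcgtGCGTGGGGGccggggcggg
Cnp site 4, chr11:100575082-100575110, plus strand, G3C: gtgcgtggggGCCGGGGCGggagagaggc

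The last 87 bp of the Cnp peak, chr11:100575066-100575152 on the plus strand, lie outside the annotated UTRs and hold 7 of its CpGs and both overlapping sites, which are in capitals. They open with the start codon of Cnp-201, which closes exon 1, and run on into intron 1 of this transcript. They are shown to give the setting of the overlapping sites, which stand near the exon border.
Cnp peak, outside the UTR: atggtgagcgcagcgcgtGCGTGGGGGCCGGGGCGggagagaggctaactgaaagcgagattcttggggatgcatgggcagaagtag

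The Mobp peak held the only exact motif among the 4. It covered chr9:120174929-120175081, 153 bp, with an IDR of 9.72e-07 and rank 2571 (21.4% of peaks ranked as well or better), so it stood close to the Cnp peak in the list. Mobp (ENSMUSG00000032517.16) spans chr9:120149707-120181484 on the plus strand. The peak lay far from the promoter of the protein-coding transcripts, 25.3 kb after the 3 starts at the 5′ end of the gene and 22.0 kb after that of Mobp-206. Its centre fell in the 3′ UTR in exon 4 of Mobp-202, and in an intron of Mobp-204 and of Mobp-205. It lay 1976 bp after the start of Mobp-205, a transcript with a retained intron. This TSS is the one that places the peak within 2 kb. The motif copy, shown in capitals with its neighbours, lay 58 bp from the centre of the peak.
Mobp site, chr9:120174933-120174961, plus strand: gcccagatggGCGGGGGCGgagggtggaa

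In CpG content the Mobp peak was the reverse of the Cnp peak. Its 3 CpGs gave a ratio of 0.31 at a GC content of 51.6%, below the mean ratio of 0.45 in its flanking windows, and 75.4% of all peaks had a ratio as high. Of its 3 CpGs, 2 lay in the motif copy itself.

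Promoter sequences in the RefSeq table (GRCm38.p6, 250 bases before to 50 after the start) matched 5 of the 9 genes by symbol: Mag, Mog, Mobp, Cnp and Olig2. Mbp, Olig1, Sox10 and Myrf had no entry, and with 5 of 9 matched a check of promoter CpG over the members is void. The values of the 5 were spread over the range of promoters. The Olig2 promoter had 25 CpGs and a ratio of 0.82, the Cnp promoter 17 and 0.64, and the Mobp promoter 5 and 0.36, against a median ratio of 0.38 over the 32851 promoters of the table. Mog had 3 CpGs and a ratio of 0.17, and the 3 entries of Mag had 3 to 6 CpGs and ratios of 0.10 to 0.19. A CpG-rich promoter was thus present at a gene with a peak (Cnp) and at one without (Olig2). None of these promoters held an exact motif, which 3.47% of all promoters in the table did. A copy with at most 1 differing base was present in 27.2% of all promoters, and a site with 1 differing base occurred in those of Cnp and Olig2, in the latter 36 bp before the RefSeq start. The parts of 3 promoters that precede the GENCODE start are given for comparison on the strand of the gene with CpGs in capitals: Cnp, whose peak begins 50 bp after them, the CpG-rich Olig2 and the CpG-poor Mog.
Cnp, chr11:100574689-100574903, plus strand: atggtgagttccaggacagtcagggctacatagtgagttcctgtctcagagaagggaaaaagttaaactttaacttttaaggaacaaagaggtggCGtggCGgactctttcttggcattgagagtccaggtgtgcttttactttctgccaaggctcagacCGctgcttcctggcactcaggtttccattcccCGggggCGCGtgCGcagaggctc
Olig2, chr16:91225300-91225456, plus strand: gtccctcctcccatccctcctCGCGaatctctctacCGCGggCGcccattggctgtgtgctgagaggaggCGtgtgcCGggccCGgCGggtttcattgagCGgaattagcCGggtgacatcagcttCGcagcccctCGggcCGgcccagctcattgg
Mog, chr17:37023399-37023648, minus strand: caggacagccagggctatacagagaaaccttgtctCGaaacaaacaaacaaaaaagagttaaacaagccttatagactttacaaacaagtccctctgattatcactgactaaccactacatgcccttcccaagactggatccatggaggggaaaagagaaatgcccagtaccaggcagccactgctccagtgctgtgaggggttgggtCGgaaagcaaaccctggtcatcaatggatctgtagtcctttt

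Exact motif copies are rare in the genome, and the windows of the 9 genes (body and 10 kb around each TSS, 20.0 to 120 kb a gene) held 2 of them. One is the Mobp copy described above. The other lay in the 3′ UTR of Olig1, 939 bp after its TSS, and no peak was called there. On the assembled chromosomes 7559 copies were counted, and 28.4% of them lay inside a peak. The Olig1 copy is set out in the same way for comparison with that of Mobp, and the same 9 letters are read on the opposite strand.
Olig1 site, chr16:91270697-91270725, minus strand: gatccaggacGCGGGGGCGcgggaagatt

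Across the 4 peaks the motif was neither frequent nor lacking relative to other peaks. An exact copy was present in 1 of 4 (interval 4.56 to 69.9%), against 16.6% of 11938 peaks on assembled chromosomes. A copy with at most 1 differing base was present in 3 of 4 (interval 30.1 to 95.4%), against 69.8% of peaks. The plot of CpGs and sites inside the peaks shows that the Cnp peak holds most of both.

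**Figure D2:**
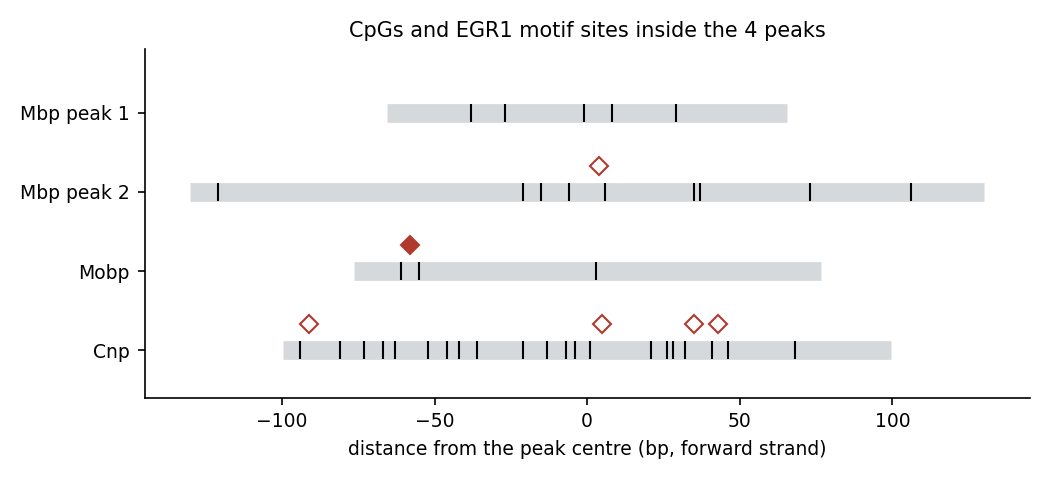
Each grey bar is 1 peak at its deposited width, with the distance from its centre in bp on the horizontal axis; black ticks are CpGs, filled diamonds exact motif copies and open diamonds sites with 1 differing base. The Cnp peak has 21 CpGs and 4 open diamonds, the Mobp peak 3 CpGs and the 1 filled diamond, and Mbp peak 1 has 5 CpGs and no diamond.

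Mbp had 2 peaks, and both lay in the stretch between its early and its late promoters. The gene (ENSMUSG00000041607.17) covers chr18:82475146-82585637, 110492 bp on the plus strand, and is known to give rise to 2 families of proteins: long Golli forms from the upstream promoter and the classic myelin basic proteins from a promoter far inside the gene. The annotation has 4 transcripts that start at the upstream end and 11 coding ones that start 79.3 kb further on. Mbp peak 1 covered chr18:82536215-82536345, 131 bp, and Mbp peak 2 chr18:82546054-82546313, 260 bp, with 9.90 kb between their centres. Both sat in intron 3 of the long transcripts Mbp-201 and Mbp-205, an intron of 32182 bp. Counted from the start of Mbp-215, the first of the classic transcripts, peak 1 was 18.2 kb upstream and peak 2 was 8.29 kb upstream, and from the upstream start they were 61.1 and 71.0 kb downstream.

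The 2 Mbp peaks differed in rank, in width and in sequence. Peak 1 had the lowest IDR of the 4 peaks, 1.12e-07 at rank 985, and 8.23% of all peaks ranked as well or better. Peak 2 had the highest of the 4, 0.00378 at rank 8967, where that share was 74.6%. Peak 1 was also narrow, since 3.54% of peaks were of its width or less. Its CpG ratio was 0.58 from 5 CpGs and a GC content of 59.5%, against 0.07 in its flanks, the largest difference from the flanks after that of Cnp. In 500 bp around the centre of peak 1 the ratio was 0.32. Peak 2 had a ratio of 0.43 from 9 CpGs and a GC content of 57.3%, against 0.28 in its flanks. Neither held an exact motif copy. Peak 2 had 1 site with 1 differing base, 4 bp from its centre, and peak 1 had none, although it was the peak with the lowest IDR. Another peak near Mbp fell outside the rule: it lay 6.75 kb past the end of the gene and 29.1 kb from its closest TSS, with an IDR of 0.0126.

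Set against the whole list, 3 of the 4 peaks were among the more reproducible ones. Their IDRs, from 1.12e-07 to 0.00378, had a median of 1.02e-06, against 0.000321 over all peaks (quartiles 2.15e-06 and 0.00388) and 0.000236 over peaks at protein-coding genes. An IDR of 0.001 or less was reached by 3 of 4, and by 59.6% of all peaks. The median CpG ratio of the 4 was 0.51 and that of their flanks 0.28, against 0.60 and 0.19 over all peaks, and the ratio was above the flanks in 3 of 4, against 85.4% of peaks. With 4 peaks these values describe the peaks named and no difference from the list was tested. The plot of IDR against CpG ratio places them among the other peaks.

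**Figure D3:**
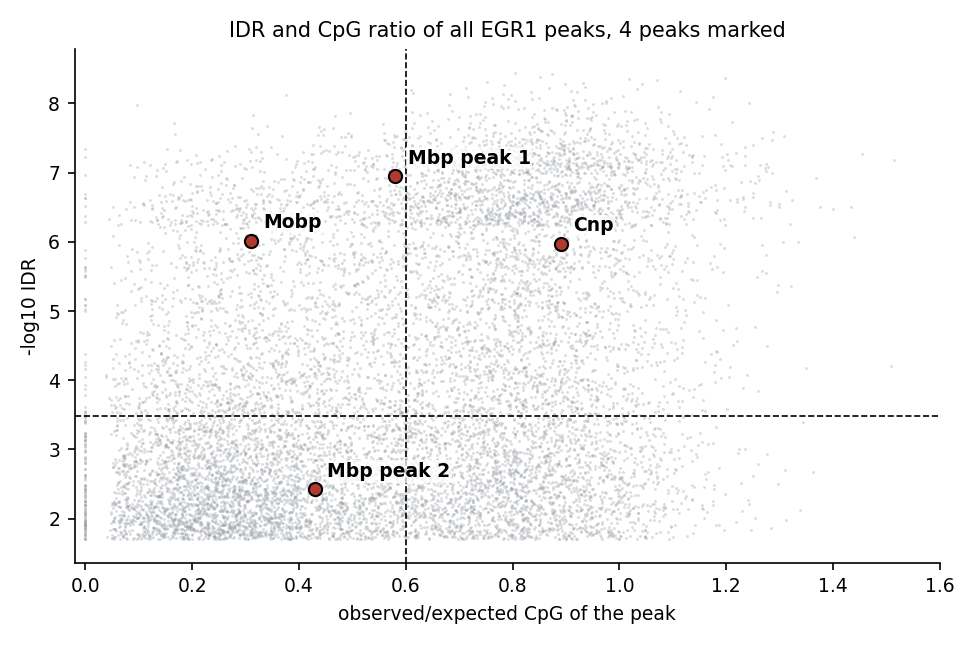
Each grey point is 1 of the 11938 peaks on assembled chromosomes, with its observed-to-expected CpG ratio on the horizontal axis and −log10 of its IDR on the vertical axis; red points are the peaks at Mbp, Mobp and Cnp, and dashed lines are the medians of all peaks. Of the 4 red points 3 lie above the median line for −log10 IDR, and the Cnp peak is the 1 to the right of the median CpG ratio.

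In position 1 of the 4 peaks, that of Cnp, lay at the start of a protein-coding transcript and the other 3 in gene bodies. A TSS of the member lay within 2 kb of 2 of them (interval 15.0 to 85.0%), those of Cnp and, through the retained-intron transcript, Mobp, against 63.6% of all peaks with any TSS that close. By the same distance, with the gene body not counted, 2 of the 9 genes had a peak, or 22.2%, against 29.6% of protein-coding genes. For each of the 4 peaks the nearest TSS of a protein-coding gene was that of the member itself. The 2 Mbp peaks belong to the 4340 peaks more than 2 kb from every TSS, whose median CpG ratio was 0.29 and of which 6.87% held an exact motif.

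The 6 genes without a peak fell into 2 kinds of surroundings. Near Mog, Mag, Sox10 and Myrf there were peaks, and the coding TSS nearest to each was that of another gene. The peak closest to a Mog TSS, 22.5 kb away at chr17:37045874-37045987, had an IDR of 1.93e-07 and lay 35 bp from a TSS of Gabbr1, which encodes a subunit of the GABA-B receptor. For Mag the closest peak was 42.8 kb away at chr7:30957517-30957775, with an IDR of 0.000241, 843 bp from a TSS of Usf2, a helix-loop-helix factor gene. For Myrf it was 32.3 kb away at chr19:10272905-10273154, with an IDR of 0.00105, and the nearest coding TSS, 16159 bp off, was that of Dagla, whose body holds the peak and which encodes the enzyme that makes the endocannabinoid 2-arachidonoylglycerol. For Sox10 it was 36.8 kb away at chr15:79201868-79202129, with an IDR of 0.000188, within no protein-coding gene and 27174 bp from the nearest coding TSS, that of Pick1, a synaptic scaffold gene. Olig1 and Olig2, which are neighbours on chromosome 16, were the other kind. The peak closest to Olig2 was 169 kb away with an IDR of 0.00520, and the one closest to Olig1 was 195 kb away with an IDR of 3.46e-07, on opposite sides of the pair.

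The number of peaks within 100 kb of each gene shows the same difference. It was 5 for Mog and for Myrf, 4 for Mbp, 3 for Mag and for Cnp, 2 for Mobp and for Sox10, and 0 for Olig1 and for Olig2. Over protein-coding genes the median was 2, and 28.6% had 0, so the Olig pair stood in a common position and not at an extreme. By distance from the closest TSS to a peak, 19.7% of protein-coding genes were as far away as Olig1 or farther and 21.6% as far as Olig2, while 44.2% to 53.9% were as far as Mag, Sox10, Myrf or Mog. Cnp, at 59 bp, was the closest of the 9, and 89.3% of protein-coding genes were as far or farther. The median distance was 29.8 kb over 21755 genes and 32.3 kb over the 9.

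**Figure D4:**
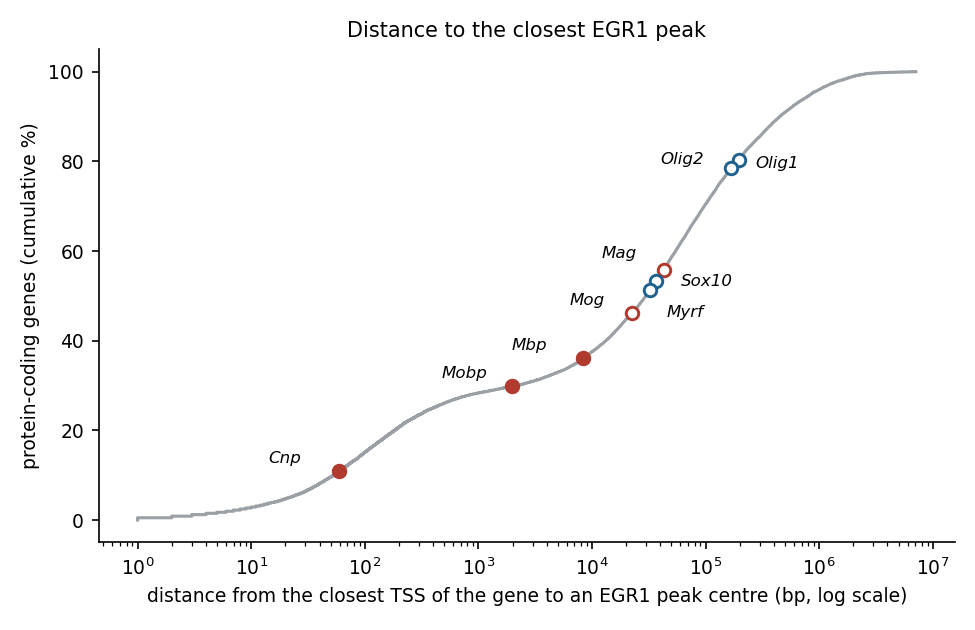
The grey line gives the cumulative share of protein-coding genes by the distance in bp from their closest TSS to a peak centre, on a log axis; circles are the 9 genes (red for myelin proteins, blue for factors), filled where the gene had a peak. Cnp, Mobp and Mbp lie at the lower left, 4 genes lie between 22.5 and 42.8 kb, and Olig2 and Olig1 lie at 169 and 195 kb.

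Other genes of the oligodendrocyte lineage were read in the same way from a list of 51, ordered by role. A peak was present at 16 of them (31.4%, interval 20.3 to 45.0), against 39.6% of protein-coding genes. With peaks at an IDR of 0.001 or less only, the count was 8 of 51 (15.7%), against 29.0% of protein-coding genes. Genes of the myelin membrane and its junctions other than the members had few, 2 of 15 (13.3%, interval 3.74 to 37.9). This interval lay below the background, with no allowance made for the number of lists read. It overlapped that of the 5 myelin protein members (23.1 to 88.2), of which 3 had a peak. The median length of the 15 genes was 17.1 kb, against 17.4 kb for protein-coding genes. Neither the difference in share nor the part of gene length in it was tested. The 2 with a peak were Cldn11 and Nfasc. Cldn11, the claudin of myelin tight junctions, had an IDR of 0.00505 at 6 bp from its TSS. Nfasc, which encodes adhesion proteins that neurons also make, had an IDR of 0.0172. Genes without a peak included Mal, Opalin, Ermn, Pllp, Tspan2, Omg, Cntn2, Gjb1, Gjc3, Jam3 and Cd9. Of the genes of myelin lipids and metabolism 1 of 10 had a peak. This was Sirt2, a deacetylase gene, with an IDR of 2.49e-07. The peak lay 176 bp from the Sirt2 TSS and 45 bp from that of its neighbour Nfkbib, the nearest one. None was called at Ugt8a, which makes galactosylceramide, or at Gal3st1, Fa2h, Aspa, Cers2, Car2, Trf, Ptgds and Enpp2.

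Lineage factors beyond the 4 members had peaks at 7 of 12 (58.3%, interval 32.0 to 80.7). The lowest IDRs were those of Hes5, a Notch target that holds back differentiation, with 4 peaks and 6.75e-08, of Sox8, a relative of Sox10, with 2 peaks and 3.30e-07, and of Sox5, with 5.71e-06 at 252 bp from its TSS. The lowest-IDR peaks of Hes5 and Sox8 were nearer to the TSSs of Pank4 and Lmf1. Another peak of each lay near its own TSS, at 147 bp for Hes5 and 578 bp for Sox8. All 7 factors with a peak had the nearest coding TSS for a peak of their own. Nkx2-2, a homeobox factor of oligodendrocyte differentiation, had a peak 40 bp from its TSS with an exact motif and an IDR of 0.00356. No peak was called at Nkx6-2, Zfp488, Tcf7l2, Id2 or Id4. Several factors of this group also act in neurons and other neural cells.

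Genes of progenitors and early stages had peaks at 3 of 8: Lhfpl3 (IDR 0.000216), Ptprz1 (0.00199, 15 bp from its TSS, with an exact motif) and Cspg4 (0.00271, 2 peaks), which encodes the NG2 proteoglycan. Pdgfra, the growth factor receptor that marks progenitors, had none, nor did Gpr17, Vcan, Bcas1 and Enpp6. Receptor genes had peaks at 3 of 6. Lingo1, a brake on myelination that neurons also express, had 7 peaks and the lowest IDR of all 51 genes, 6.07e-08. S1pr5 had 1 peak at 5.76e-07, nearer to a TSS of Keap1, and Adgrg1 had 1 at 0.0144, while Lpar1, Gpr37 and Erbb3 had none.

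Marker genes of the other cell types of the cortex give the range within which the 9 genes lie. A peak was present at 3 of 9 astrocyte genes (33.3%: Slc1a2, Sox9 and Glul, but not Gfap, Aqp4, Slc1a3, Aldh1l1, S100b or Gja1) and at 4 of 9 microglia genes (44.4%: Aif1, Cx3cr1, P2ry12 and Spi1, but not Tmem119, Csf1r, Trem2 or Itgam, for example). Only 1 of the microglia genes was the gene with the nearest coding TSS for a peak of its own, and the lowest-IDR peaks of Aif1, Cx3cr1 and P2ry12 were nearer to TSSs of Prrc2a, Csrnp1 and Med12l. Of the neuron genes 8 of 9 had one (88.9%, interval 56.5 to 98.0), all but Map2. The lowest IDRs were those of Slc17a7 (3.55e-08), Nefl (1.44e-07) and Rbfox3 (2.10e-07). The lowest-IDR peak of Slc17a7 was nearer to a TSS of Gfy, and 8 neuron genes had the nearest coding TSS for a peak of their own. Within 2 kb of a TSS the counts were 8 of 9 for neuron genes and 3 of 9 for astrocyte genes. They were 2 of 9 for the myelin and oligodendrocyte genes and 0 of 9 for microglia genes. Over all protein-coding genes 29.6% had a peak that close. The intervals of the neuron genes and of the 9 genes (12.1 to 64.6) overlap, and the difference between the lists was not tested. Neuron genes were also longer, with a median of 60.5 kb against 15.7 kb, and the part of gene length in the counts was not tested.

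**Figure D5:**
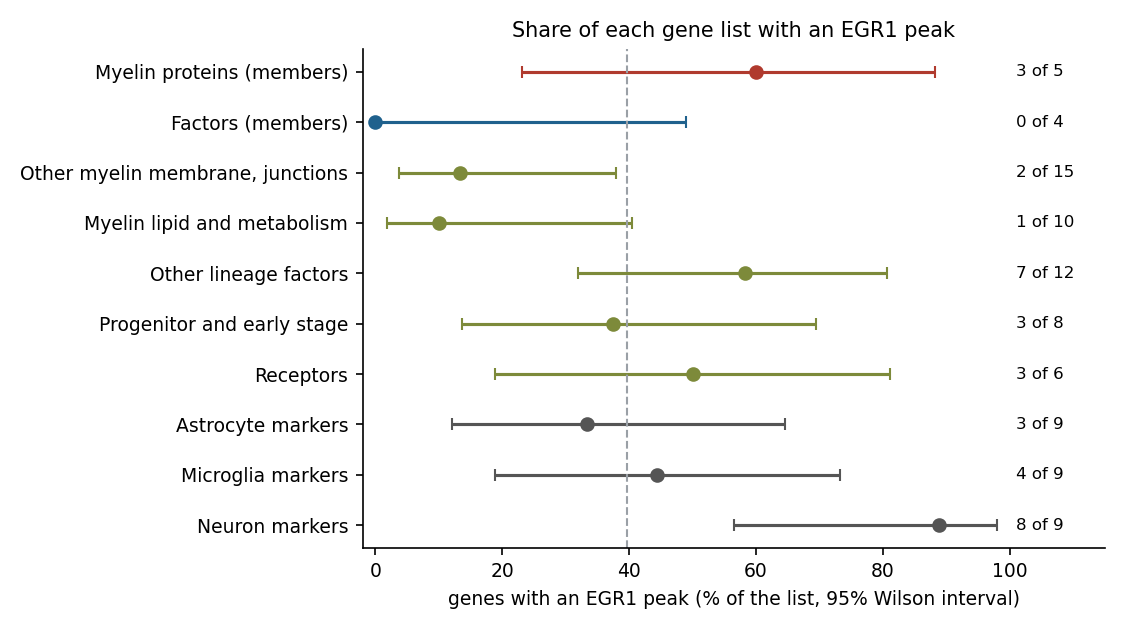
Points give the percent of each gene list with a peak, bars its 95% Wilson interval, the text at the right the counts, and the dashed line the 39.6% of all protein-coding genes; red and blue are the members, green the other oligodendrocyte lists and grey the markers of other cell types. The factor members lie at 0, the myelin protein members at 60.0%, and the neuron markers, at 88.9%, are the list whose interval lies wholly above the dashed line, while that of the other myelin membrane and junction genes lies wholly below it. No allowance was made for the number of lists.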

How the data were processed

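EGR1 ChIP-seq of mouse frontal cortex was analysed from 1 list of peak positions and IDRs. Per the study's methods, the authors aligned quality-trimmed reads to mm10 (Bowtie), used SPP to find peaks in every replicate, and kept those with an IDR of 2% or less in the merged replicates. The processing notes of the submitters name cutadapt, Bowtie2 2.2.9 and bedtools 2.26.0. The deposited IDR is read like a q-value, and depth is unknown. Positions were read as BED and are printed 1-based. Of the peaks, 76 on unplaced scaffolds were left out of shares over peaks and of sequence values. Genes came from GENCODE M21. Placement, motif search, CpG counts and intervals used Python 3.11.15, numpy 2.4.6, pandas 2.3.3 and scipy 1.17.1, and were tested on simulated data. All 9 members were named, and of each other list its count, the genes with the 3 lowest IDRs and those without a peak, except a few counted in their lists whose names are not reported here; others named, and the motif copies counted in the gene windows and the genome, were chosen after their values were seen. The members and lists were chosen with earlier results of these data known. Alternatives changed the TSS distance, the IDR limit, the part of the peak placed, the transcripts, the assignment, the motif and the CpG window. A peak list does not measure expression, so the labelled tissue could not be checked against markers. The input DNA was not used here.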

Additional observations from a re-analysis of the deposited data

How the results depend on the processing

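Mbp, Mobp and Cnp were the members with a peak under every alternative tried except a TSS distance of 50 kb, which kept them and added Mag, Mog, Sox10 and Myrf, for 7 genes and 17 peaks with a median IDR of 5.89e-05. At that distance the members' share was 77.8%, above the 58.7% of protein-coding genes. Of the 51 other lineage genes 27 had a peak (52.9%), below that background. At 10 kb the members' share was 33.3% and that of the other lineage genes 31.4%, both below the 39.6%. With a TSS distance of 2 kb and the gene body still counted the background was 34.2%, and with basic transcripts only 38.2%. With the gene of the nearest coding TSS only it was 31.3%, and with an IDR of 0.001 or less 29.0%. The members' 33.3% lay below the background in the first pair and above it in the last. That IDR limit left 8 of the 51 genes with a peak (15.7%), removed Mbp peak 2, and gave the remaining member peaks a median IDR of 9.72e-07 and a median CpG ratio of 0.58. In windows of 500 bp around the centre the median CpG ratio was 0.38. The count of member peaks with the motif was 3 when 1 differing base was allowed. No paired analysis was possible because both replicates were merged before deposit, and for the same reason no replicate could be left out. Without read counts, a gene without a peak cannot be told apart from one bound below the IDR limit.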
